A study of Homo sapiens with 3 samples.

Results

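Transcripts of 9 genes of ADP-ribose metabolism were followed in HCT-116 cells after silencing of *APC*. They are the tankyrases *TNKS* and *TNKS2*, the tankyrase partners *TNKS1BP1* and *RNF146*, the DNA-break enzymes *PARP1* and *PARP2*, and the ADP-ribose removing enzymes *PARG*, *MACROD1* and *MACROD2*. Each was taken by its symbol from a table of 23131 genes, and all 9 have a row. HCT-116 is a colon carcinoma line with wild-type APC and a CTNNB1ΔSer45 allele, which encodes a β-catenin that resists degradation, and all libraries share this background. The study made 3 libraries, 1 per condition, from cells transfected 2 times on consecutive days and harvested 48 hours after the second transfection. The conditions were a pool of anti-*APC* siRNA, a pool of scrambled siRNA, and cells titled untransfected whose treatment label says reagent only (mock). The values used here compare anti-*APC* siRNA with untransfected cells, while the scrambled library was not analysed here. From these 2 libraries alone, a difference due to the loss of *APC* cannot be told apart from one due to the delivery of an siRNA. The study also set scrambled siRNA against untransfected cells for a selection of genes that includes *MACROD1* and *AXIN2*, and those values were not used here.

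ADP-ribosylation is the transfer of ADP-ribose from NAD to proteins. Tankyrases build chains of it on axin, the scaffold on which APC, GSK3 and casein kinase 1 mark β-catenin for destruction. RNF146, a ubiquitin ligase that recognises these chains, then sends axin to the proteasome, so tankyrases and RNF146 set how long axin lasts. PARP1 and PARP2 build similar chains at DNA breaks. PARG trims the chains, and the macrodomain proteins MACROD1 and MACROD2 remove the last ADP-ribose from acidic residues. Focal deletions of *MACROD2* are common in colorectal tumors.

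Levels are FPKM, the fragments of a transcript divided by its length in kilobases and by the mapped reads of the library, as the authors computed them with Cufflinks and Cuffdiff, so levels of different genes can be set side by side. No condition was sequenced more than 1 time, so no difference could be set against replicates and no test was run. A gene was called changed when its FPKM differed at least 1.5-fold between libraries, its mean was at least 1 FPKM and it was above 0 in both. The low FPKM values fall on steps of whole reads, which gives the anti-*APC* library 0.913 of the depth of the untransfected library. With transcript lengths, the depth comes to about 23100000 reads for untransfected cells (quartiles 12800000 and 26300000 over 51 genes) and near 21100000 reads after anti-*APC* siRNA. The intervals given below are 95% exact intervals from the reads that these depths imply. They cover counting error only, and reads copied by PCR are not independent molecules, so the spread between cultures is not in them. The uncertainty of the depth is not in them either, and at the lower quartile of the depth they are wider. *APC* itself had 9.15 FPKM in the untransfected library and 3.43 FPKM in the anti-*APC* library, a ratio of 0.375. Of 8 colon epithelial markers 5 passed the minimum of 1 FPKM, led by *KRT8* (588 and 478 FPKM) and *KRT18* (461 and 337 FPKM). The cadherin *CDH1* was called lower, at 19.0 FPKM without and 12.1 FPKM with the anti-*APC* pool. *KRT20*, *VIL1* and *CDX1* were below 1 FPKM or at 0. Of 12 markers of other cell types only *CD68* (8.91 and 5.01 FPKM, called lower) and *COL1A1* (2.85 and 3.08 FPKM) passed the minimum, and the list summed to 12.4 and 8.40 FPKM. The leukocyte marker *PTPRC* was at 0.0148 and 0.00812 FPKM.

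The 9 genes spanned a wide range of transcript levels, and their order was the same in both libraries. *PARP1* led with 135 FPKM in untransfected cells, a level above that of 94.2% of the 12063 genes that passed the minimum. It was followed by *PARP2* at 55.6, *TNKS2* at 23.7, *PARG* at 14.9, *TNKS* at 13.6, *TNKS1BP1* at 10.8, *RNF146* at 7.39, *MACROD1* at 4.96 and *MACROD2* at 0.0528 FPKM. The nuclear DNA-break enzymes thus stood above the tankyrases, and the macrodomain hydrolases stood at the bottom. At the depths given above, 1 of the 8 pairs of neighbours in this order had overlapping counting intervals in untransfected cells, that of *PARG* (13.9 to 15.9 FPKM) and *TNKS* (13.2 to 14.1 FPKM). In the anti-*APC* library 0 of the 8 pairs overlapped. These comparisons between genes also rest on the transcript models used for length, whose error is not in the intervals.

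**Figure D1:**
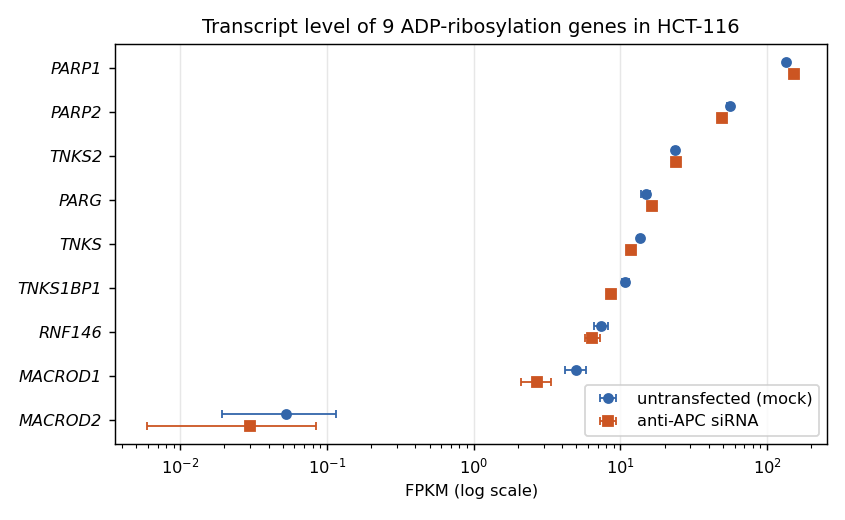
FPKM (log scale) of the 9 genes in the untransfected library (blue circles) and the anti-*APC* siRNA library (orange squares), 1 library each, with 95% counting intervals as bars. The order from *PARP1* (135 and 153 FPKM) down to *MACROD2* (0.0528 and 0.0297 FPKM) is the same in both libraries, and the gap between symbols is widest for *MACROD1* and *MACROD2*.

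Of the 9 genes, 8 passed the minimum, and 1 of these 8 was called, *MACROD1*, which was lower with the anti-*APC* pool. The study had chosen *MACROD1* as a candidate partly on its change after *APC* silencing in the same RNA sequencing. Its call here is therefore not independent of that choice. Over all genes 9.17% of those tested were called in either direction, 6.61% as lower and 2.56% as higher, so 1 of 8 is near the background. The median log2 ratio of the 8 genes, anti-*APC* over untransfected, was -0.19, beside -0.05 over all tested genes. Of the 8 genes 5 had a ratio below 1 (62.5%), as did 58.6% of all tested genes. The 7 genes that were not called had ratios between 0.802 and 1.13. Calls of a decrease were more frequent among weakly expressed genes, at 11.5% of genes with a mean of 1 to 10 FPKM, 3.02% of genes of 10 to 100 FPKM and 4.22% of genes above. The median log2 ratio was -0.13 over genes of 1 to 10 FPKM, -0.02 over genes of 10 to 100 FPKM and 0.02 over genes of 100 FPKM or more.

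*MACROD1*, on chromosome 11 of GRCh37 from 63766030 to 63933585 on the minus strand, had 4.96 FPKM in the untransfected library and 2.69 FPKM in the anti-*APC* library. The anti-*APC* library is the low one, with 0.542 of the untransfected level. These levels stand for about 144 and 71.2 reads. The log2 ratio was -0.88, with a counting interval of -1.32 to -0.47 that leaves out 0 but includes changes smaller than 1.5-fold. Among the 3117 genes with a mean FPKM within 2 times that of *MACROD1*, the median log2 ratio was -0.13 and the 5th and 95th percentiles were -0.78 and 0.45. *MACROD1* lay below this range, and 10.8% of these genes were lower by at least 1.5-fold. *FLRT1*, which encodes a leucine-rich repeat membrane protein, lies within *MACROD1* on the opposite strand and had 0.138 FPKM in both libraries. The library kit does not mark strand, so reads of the pair can be told apart only where their exons do not overlap.

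The promoters of the macrodomain pair are shown because these genes had the lowest ratios of the set. That of *MACROD2* rests on about 5.99 and 3.07 reads, below the minimum, with a counting interval that includes 0. A decrease shared by the pair is therefore not shown. The study examined the *MACROD1* promoter as a region bound by APC. The windows run from 250 bases before to 50 bases after a RefSeq start site (GRCh38.p14). That of *MACROD1* is chr11:64166064-64166363 on the minus strand and the window shown for *MACROD2* is chr20:13995266-13995565 on the plus strand, written 5′ to 3′ with capitals for matches to the motifs searched.
MACROD1: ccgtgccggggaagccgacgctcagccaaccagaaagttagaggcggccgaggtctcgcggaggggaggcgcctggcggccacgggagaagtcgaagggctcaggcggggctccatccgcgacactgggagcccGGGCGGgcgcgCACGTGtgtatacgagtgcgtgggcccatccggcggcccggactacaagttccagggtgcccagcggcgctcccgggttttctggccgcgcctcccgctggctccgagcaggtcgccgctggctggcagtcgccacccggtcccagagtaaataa
MACROD2: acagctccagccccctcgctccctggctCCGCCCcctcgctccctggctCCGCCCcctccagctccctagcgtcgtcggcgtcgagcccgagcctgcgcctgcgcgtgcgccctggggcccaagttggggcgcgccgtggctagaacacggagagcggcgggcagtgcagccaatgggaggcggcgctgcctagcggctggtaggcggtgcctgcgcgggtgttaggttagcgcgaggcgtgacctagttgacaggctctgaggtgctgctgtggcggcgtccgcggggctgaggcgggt

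The motifs searched, on either strand, are for some of the factors the study considered. They were a TCF motif (CAAAG preceded by any 2 bases that are each A or T), an AP-1 motif (TGANTCA with C or G at the N), an E-box (CACGTG) and a GC box (GGGCGG). This GC box is shorter than the SP1 motif of the study, so a match to it need not match that motif. The NRF1 and EGR-1 motifs of the study were not searched. With the start site at 0, the *MACROD1* window holds 1 E-box at -105 and 1 GC box just upstream of it, and no TCF or AP-1 motif. The *MACROD2* window shown holds 2 GC boxes, at -222 and -201, and none of the other motifs. A further *MACROD2* window, at chr20:15196590-15196889, holds none of the motifs. An E-box is found in 7.26% and a GC box in 45.0% of the 35116 promoter windows of RefSeq, a TCF motif in 13.8% and an AP-1 motif in 4.95%. RefSeq windows were matched for 7 of the 9 genes, all but *TNKS* and *TNKS1BP1*, with 9 windows in all. E-boxes were also present in the window of *TNKS2* at -47 and in a window of *RNF146* at -27, and the AP-1 motif was in 0 of the 9 windows. A match of letters does not show that a factor binds.

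*MACROD2*, on chromosome 20 from 13976015 to 16033842, was barely detected. It had 0.0528 FPKM in untransfected cells and 0.0297 FPKM after anti-*APC* siRNA, which stand for about 5.99 and 3.07 reads. Its mean was below the minimum, so it was not tested for a call. The log2 ratio was -0.83 with a counting interval of -3.50 to 1.36, so a difference was not detectable at this depth. In untransfected cells the *MACROD1* transcript was 93.9 times as abundant as that of *MACROD2*, and 90.7 times with the anti-*APC* pool. Both ratios are imprecise, since the counting interval of *MACROD2* was 0.0194 to 0.115 FPKM without and 0.00597 to 0.0846 FPKM with the pool. *FLRT3*, a paralog of *FLRT1* that lies inside *MACROD2* on the opposite strand, had 0.448 FPKM without and 0.728 FPKM with the anti-*APC* pool. Its log2 ratio was 0.70, with a counting interval of 0.15 to 1.22, and its mean was below the minimum. The antisense gene *MACROD2-AS1* was listed at 0 in both libraries.

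The tankyrase transcripts differed little between the libraries. *TNKS*, on chromosome 8 from 9413422 to 9639856, had 13.6 FPKM in untransfected cells and 11.8 FPKM after anti-*APC* siRNA, a ratio of 0.867. Its log2 ratio was -0.21, with a counting interval of -0.28 to -0.13. *TNKS2*, on chromosome 10 from 93558183 to 93625232, had 23.7 and 24.0 FPKM, a ratio of 1.01. Its log2 ratio was 0.02, with an interval of -0.05 to 0.09. *TNKS2* was the more abundant paralog in both libraries, at 1.74 times *TNKS* without and 2.03 times with the anti-*APC* pool. For genes of the level of *TNKS* the 5th and 95th percentiles of the log2 ratio were -0.54 and 0.35, so both tankyrases lay well inside the range of their peers. The microRNA gene *MIR597*, of 97 bases, lies within *TNKS* and was listed at 34.8 FPKM in the untransfected library and at 0 in the anti-*APC* library. Being at 0 in 1 library, *MIR597* was not tested for a call, and its reads and counting interval were not computed. FPKM of so short a gene depends strongly on the length used, so this difference is not read as a change. The part of *MIR597* in the *TNKS* value was not tested.

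Both partners of the tankyrases were somewhat lower and were not called. *TNKS1BP1*, which encodes a large tankyrase-binding protein, lies on chromosome 11 from 57067112 to 57092426. It had 10.8 FPKM without and 8.68 FPKM with the anti-*APC* pool, a ratio of 0.802 and a log2 ratio of -0.32 (counting interval -0.43 to -0.20). After *MACROD1* it had the lowest ratio among the 8 genes that passed the minimum. The range between the 5th and 95th percentiles of its peers was -0.58 to 0.36. *RNF146*, on chromosome 6 from 127587871 to 127609712, had 7.39 and 6.45 FPKM, a log2 ratio of -0.20 with an interval of -0.42 to 0.03 that includes 0. The sum of *TNKS* and *TNKS2* was 5.05 times the level of *RNF146* without and 5.55 times with the anti-*APC* pool. *ECHDC1*, the next gene to *RNF146*, was listed at 0 in both libraries with the status FAIL in the authors' table, so its level is not known.

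Axin, the target of these enzymes, had the tested transcript that differed most in the gene lists used here. *AXIN2*, a WNT target that encodes the inducible axin, had 4.11 FPKM without and 28.7 FPKM with the anti-*APC* pool, and *AXIN1*, the axin expressed throughout the body, had 6.46 and 6.37 FPKM. The ratio of *AXIN2* to *AXIN1* therefore went from 0.635 to 4.51. Set against the sum of *TNKS* and *TNKS2*, which was 37.3 FPKM without and 35.8 FPKM with the anti-*APC* pool, the sum of the axin transcripts went from 10.6 to 35.1 FPKM. Axin transcript per tankyrase transcript was thus 0.283 in the untransfected and 0.980 in the anti-*APC* library. These ratios are within each library and do not depend on the scaling between libraries. They say nothing of protein levels, at which tankyrases and RNF146 act on axin.

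Of 11 genes of axin and the β-catenin destruction complex 10 were tested, and *AXIN2* (higher) and *APC* (lower) were called, 20% beside 9.17% of all tested genes. *APC* is the target of the siRNA, so its call was fixed by the design, and *AXIN2* was a positive control of the study. The share of 20% is therefore not read as a trait of this list. *CTNNB1*, which encodes β-catenin, had 177 and 178 FPKM, and *CSNK1A1*, which encodes the priming kinase, had 89.9 and 113 FPKM. Of 10 ubiquitin enzymes linked to axin or to RNF146, all were tested and 0 were called. The most abundant were the E2 enzyme *UBE2D3* (176 and 185 FPKM) and the axin-directed ligase *SMURF2* (78.3 and 97.6 FPKM). The lowest ratio in this list was that of *RNF4*, a ligase that recognises SUMO chains, with 38.9 and 27.3 FPKM (named after its value was seen). The list of 18 tankyrase-binding proteins includes *TNKS1BP1* and *RNF146* of the 9 genes, and *AXIN1* and *AXIN2* of the destruction complex list. All 18 were tested, and the 1 call was again *AXIN2*. The next in this list, *AMOTL2*, had 14.7 and 21.4 FPKM, a log2 ratio of 0.54 just under the threshold of 0.58 (named after its value was seen). *MCL1* (88.8 and 89.4 FPKM) and *BABAM1* (48.9 and 45.2 FPKM) were the most abundant. The median log2 ratio was -0.11 over the destruction complex, 0.12 over the ubiquitin enzymes and -0.01 over the tankyrase-binding proteins.

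**Figure D2:**
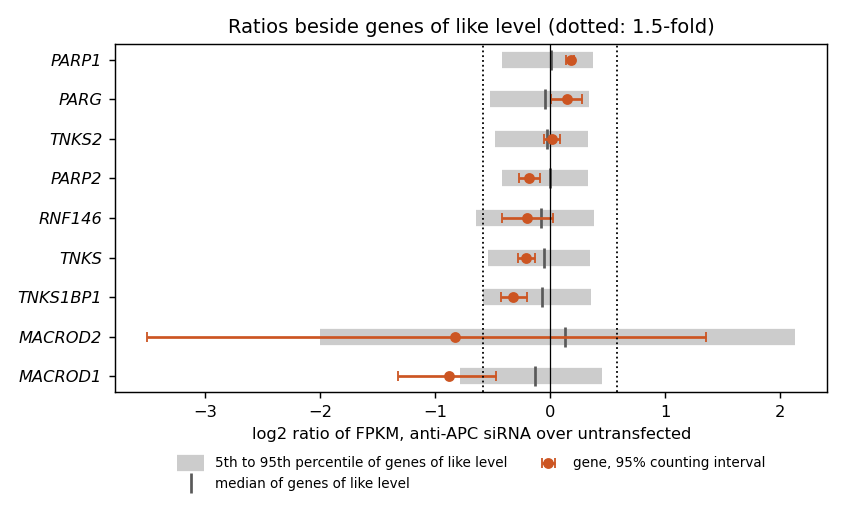
Log2 ratio of FPKM, anti-*APC* siRNA over untransfected, of the 9 genes (orange, with 95% counting intervals), on the 5th to 95th percentile of genes with a mean FPKM within 2 times (grey bars) and their median (tick), with dotted lines at 1.5-fold. *MACROD1* at -0.88 lies left of its grey bar, the other 8 genes lie on theirs, and the interval of *MACROD2* runs from -3.50 to 1.36.

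The DNA-break enzymes differed by small amounts in opposite directions, and neither was called. *PARP1*, on chromosome 1 from 226547911 to 226595855, had 135 FPKM in untransfected cells and 153 FPKM after anti-*APC* siRNA, a ratio of 1.13. Its log2 ratio was 0.18 with a counting interval of 0.14 to 0.21. *PARP2*, on chromosome 14 from 20811774 to 20826063, had 55.6 and 49.1 FPKM, a ratio of 0.883. Its log2 ratio was -0.18 with an interval of -0.27 to -0.09. The *PARP1* transcript was thus 2.43 times that of *PARP2* without and 3.11 times with the anti-*APC* pool. The counting intervals of both leave out 0, but the 5th and 95th percentiles of genes of like level were -0.42 and 0.37 for *PARP1* and -0.42 and 0.33 for *PARP2*, far wider than counting error. *RPPH1*, the RNA of ribonuclease P encoded next to *PARP2*, had 0.784 and 1.72 FPKM, past 1.5-fold with a mean just above the minimum. Its status in the authors' table is NOTEST, and no transcript length was matched to it, so its reads and counting interval are not known.

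The *PARP1* promoter is shown because, among the 7 genes with a window, only *PARP1* and *RNF146* hold a TCF motif. Its window is chr1:226408044-226408343 on the minus strand of GRCh38.p14, with capitals for 1 TCF motif at -198 and 2 GC boxes at -86 and -47. *RNF146* has its TCF motif at -37 of 1 start site and -219 of the other, which is the same copy in windows that overlap.
PARP1: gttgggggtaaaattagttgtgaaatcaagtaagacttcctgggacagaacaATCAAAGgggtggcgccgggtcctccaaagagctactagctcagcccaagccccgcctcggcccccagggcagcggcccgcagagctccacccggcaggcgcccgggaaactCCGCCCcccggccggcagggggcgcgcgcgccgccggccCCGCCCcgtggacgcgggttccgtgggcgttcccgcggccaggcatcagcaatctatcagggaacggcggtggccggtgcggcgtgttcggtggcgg

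*PARG*, on chromosome 10 from 51026325 to 51130715, had 14.9 FPKM without and 16.5 FPKM with the anti-*APC* pool, a ratio of 1.11. Its log2 ratio was 0.15 with a counting interval of 0.01 to 0.28, which becomes -0.04 to 0.33 and includes 0 at the lower quartile of the depth. The ratio of *PARP1*, the main writer of the chains, to *PARG*, their main eraser, was 9.10 without and 9.28 with the anti-*APC* pool. *PARG* has a pseudogene copy in a duplicated region, and the division of reads between them is uncertain. The copy, listed as *LOC728407* and named *PARGP1* in RefSeq, had 8.47 and 9.02 FPKM, a log2 ratio of 0.09. The sum of *PARG* and *LOC728407* was 23.3 FPKM without and 25.5 FPKM with the anti-*APC* pool. *AGAP8*, whose locus as given by the authors overlaps that of *PARG*, had 2.99 and 2.83 FPKM. Its GENCODE span, 51224681 to 51371321, lies outside the *PARG* span above. The reads and intervals of *PARG* rest on the GENCODE length of 2537 bases, which may differ from the authors' model. *TIMM23*, in the same duplicated region, had 114 and 127 FPKM.

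**Figure D3:**
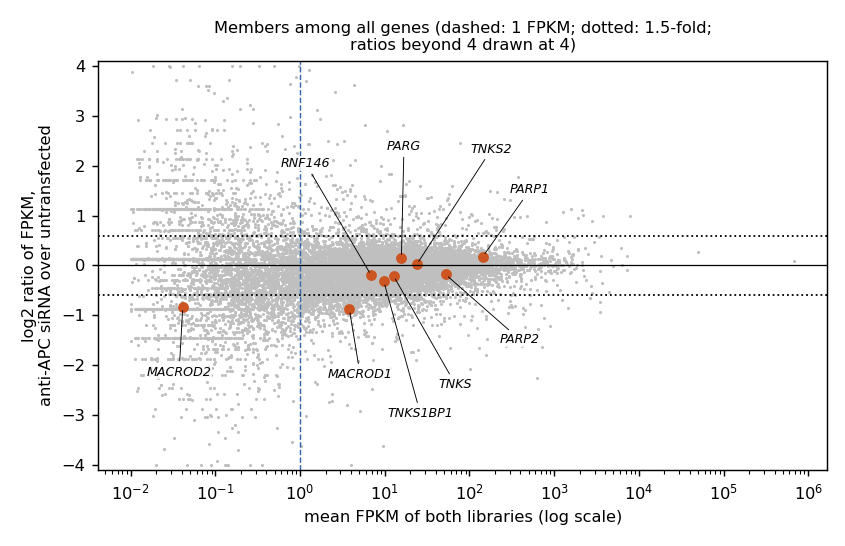
Log2 ratio of FPKM, anti-*APC* siRNA over untransfected, against the mean FPKM of both libraries (log scale) for all genes above 0 in both and at least 0.01 FPKM (grey), with the 9 genes in orange. The spread widens to the left of 1 FPKM, where *MACROD2* lies among rows of points that are steps of whole reads, and *MACROD1* is the only orange point past the dotted lines of 1.5-fold to the right of the dashed line.

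Among the other PARP family genes, 9 of 13 were tested, with 1 called higher and 1 called lower, where 2.56% of all tested genes were called higher and 6.61% lower. *TIPARP*, a mono-ADP-ribosyltransferase induced by the aryl hydrocarbon receptor, was higher, at 28.6 FPKM without and 44 FPKM with the anti-*APC* pool, a log2 ratio of 0.62 (counting interval 0.55 to 0.70). *PARP3*, which acts at DNA double-strand breaks, was lower, at 6.10 and 3.62 FPKM, a log2 ratio of -0.75 (interval -1.03 to -0.49). *PARP4*, the PARP of the vault particle, was the most abundant of the list, with 48.4 and 45.7 FPKM. *PARP9* was listed at 0 in both libraries with the status FAIL, so its level is not known. Some PARP genes respond to interferon, and siRNA can act on this response. Whether it did so here, or bears on the PARP values, was not tested. Of 13 interferon response genes 8 were tested, and the other 5 were below the minimum. The 1 call was *IFIT1*, which was lower at 1.43 and 0.850 FPKM, and 1 of 8 is near the 9.17% of all tested genes. *ISG15* had 78.0 and 65.3 FPKM. The median log2 ratio was -0.13 over the PARP genes and -0.22 over the interferon genes.

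Among 11 other enzymes and proteins that remove or bind ADP-ribose, 10 were tested, with 0 called higher and 2 called lower, a called share of 20% beside 9.17% of all tested genes. *ENPP1*, an ectoenzyme that cleaves nucleotides and ADP-ribose bonds, had 3.34 FPKM without and 1.56 FPKM with the anti-*APC* pool, a log2 ratio of -1.10 (counting interval -1.32 to -0.88). *ADPRHL1*, a relative of the ADP-ribosylhydrolases, had 4.60 and 2.95 FPKM, a log2 ratio of -0.64 (interval -0.79 to -0.49). The most abundant were *NUDT5*, which breaks down free ADP-ribose, with 88.1 and 92.5 FPKM, and *CHD1L*, a chromatin remodeler recruited by the chains, with 34.4 and 31.2 FPKM. The median log2 ratio was -0.13. Like *MACROD1*, both called genes had a mean under 10 FPKM, a class in which 11.5% of all 4945 tested genes were lower by at least 1.5-fold.

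The partners of PARP1 in break repair were close to their untransfected levels. All 16 were tested and 0 were called, where 9.17% of all tested genes were called. The share over all genes was 4.61% at 10 to 100 FPKM and 8.04% at 100 FPKM or more. For a list of 16 genes, 0 calls is therefore near the background. Their log2 ratios ran from -0.09 to 0.26 with a median of 0.07. *XRCC6* and *XRCC5*, which encode the Ku proteins, were the most abundant, with 491 and 503 FPKM for *XRCC6* and 345 and 384 FPKM for *XRCC5*. *C4orf27*, now *HPF1*, whose product directs PARP1 to serine residues, had 23.5 and 23.7 FPKM (named after its value was seen).

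NAD is the substrate of the enzymes that transfer ADP-ribose to proteins. Of 20 genes of NAD synthesis and use 13 were tested, with 0 called higher and 3 called lower. The called share is 23.1%, beside 9.17% of all tested genes (6.61% lower), and rests on 3 genes. *NMNAT3*, the mitochondrial NMN adenylyltransferase, had 2.26 FPKM without and 1.01 FPKM with the anti-*APC* pool, a log2 ratio of -1.16 (counting interval -1.70 to -0.63). *NMNAT1*, the nuclear form of this enzyme, had 4.85 and 3.11 FPKM, a log2 ratio of -0.64 (interval -0.87 to -0.41). *C9orf95*, now *NMRK1*, a nicotinamide riboside kinase, had 1.82 and 1.15 FPKM, a log2 ratio of -0.66. The more abundant entry enzymes were not called. *NAMPT*, the rate-limiting enzyme of the salvage pathway, had 40.2 and 45.8 FPKM, and *NAPRT1*, which uses nicotinic acid, had 36.0 and 34.8 FPKM. The 3 called genes again had means under 10 FPKM. The median log2 ratio of the list was -0.12.

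**Figure D4:**
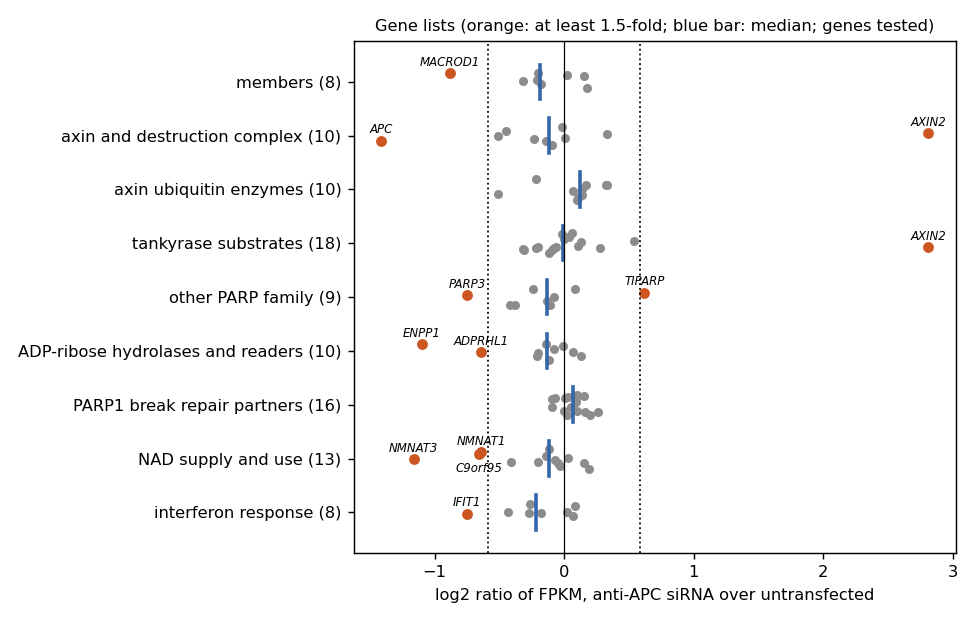
Log2 ratio of FPKM, anti-*APC* siRNA over untransfected, of each tested gene in the 9 genes of the report (top row) and in 8 lists of related genes, with the number tested in parentheses, blue bars for medians, orange for genes past 1.5-fold (dotted lines) and grey for the others. *AXIN2* at 2.81 is far from all others. Of the 11 different orange genes 9 lie on the left, among them *APC*, the target of the siRNA. Over all genes 72.1% of the calls also lie on the left.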

How the data were processed

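RNA of 3 HCT-116 libraries was sequenced from single-read TruSeq libraries, 1 per condition. The authors assigned reads and computed FPKM with Cufflinks and compared libraries with Cuffdiff, on hg19 per the labels. The aligner, annotation and versions are not given in the sources used here. Their table also holds a fold change, test statistic, *p* and *q* of their own comparison, which were not used. FPKM divides reads by transcript length, so overlapping genes and copies share an uncertain division of reads. No column for scrambled siRNA was used.

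The log2 ratio of FPKM, anti-*APC* over untransfected, was computed without a pseudocount. With 1 library per condition there is no test. Calls need a 1.5-fold difference, both values above 0 and a mean of at least 1 FPKM. Of the 23131 rows, 12063 passed, 5218 were at 0 in both libraries and 1624 in 1 of them. All 269 rows of status FAIL are at 0 in both.

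Relative depth is the most frequent log2 ratio (0.131) among 4226 genes with a mean under 1 FPKM, where 400 genes lay within 0.002 of it. Of these 4226 genes 32.7% lay on ratios of 1 to 6 whole reads. Genes at 2 reads to 1 with a single GENCODE 44 transcript gave the depth. Reads per gene use the canonical transcript (the longest for *PARG*). Intervals of ratios are Clopper-Pearson, and those of FPKM levels are exact Poisson intervals. Gene coordinates are GENCODE 44 on GRCh37, the build of the labels.

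The genes and lists were chosen with earlier results of these data known. Named are the 9 genes, *APC*, *AXIN1* and *AXIN2*, overlapping genes and copies, and per list up to 4 called genes with the largest ratio and the 2 most abundant. A gene that this rule names is not reported here. Alternatives were other fold thresholds, pseudocounts and minimums, median centring, and, added later, centring on genes of like level and rows alone at their locus. The steps were tested on simulated data. Python 3.11.15 was used with numpy 2.4.6, pandas 2.3.3, scipy 1.17.1 and matplotlib 3.10.9.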

Additional observations from a re-analysis of the deposited data

How the results depend on the processing

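The sign of the log2 ratio of each of the 9 genes was the same with a pseudocount of 0.1 or 1 FPKM, after median centring and after centring on genes of like level (the last chosen after the data were seen). *PARP1* went from 0.18 to 0.23 with median centring. *MACROD2* went from -0.83 to -0.03 with a pseudocount of 1 FPKM. *MACROD1* stayed between -0.88 and -0.69. The count of called genes among the 9 was 1 in the report, 0 at 2-fold, 0 with a minimum of 5 FPKM, which leaves *MACROD1* out, 2 with no minimum, which adds *MACROD2*, and 0 among the 5 tested genes alone at their locus, since *MACROD1* shares its locus with *FLRT1*. The call of *MACROD1* held under the other settings. Of 90 tested genes of the 8 lists outside the 9 genes, 10 were called in the report, beside 1106 of all 12063 tested genes. These 10 include *APC*, the target of the siRNA. At a threshold of 0.32 on the log2 scale 20 of the 90 were called, beside 3084 of the 12063. At 2-fold the counts were 4 and 280, and with a pseudocount of 1 FPKM they were 6 and 675, of the same totals. With a minimum of 5 FPKM, 3 of 71 list genes and 533 of all 9201 tested genes were called. Over all genes, 2190 of 14630 were called with a minimum of 0.1 FPKM and 3162 of 16289 with no minimum. Among rows alone at their locus 735 of 9164 were called. With the lower quartile of the depth (chosen after the data were seen), the counting intervals of 5 of the 9 genes leave out 0, and that of *PARG* includes it. No paired analysis was possible because each condition has 1 library, and no library could be left out for the same reason.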
